A study of Rattus norvegicus with 23 samples.

Results

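Platelets and megakaryocytes were followed through 36 genes in peripheral blood mononuclear cells (PBMC) of rat pups. A gene was a member when the gene name of an array probe, without the suffix for predicted genes, was on the list, and its brightest probe stood for it. That rule found 27 of the 36 genes. A further 5 (Pf4, Ppbp, Treml1, Clec1b and Mmrn1) were found under the older names or identifiers that the array design gives them, through RefSeq synonyms or accessions. Itga2b, Gp1ba, Gp6 and Tubb1 were matched to no probe by name. Of the 32 matched genes, 27 passed the filter on dim probes and were tested among 20751 features, drawn from 41012 probes. Selp, P2ry1, F2r and Pdgfa were not well above background on any of the 23 arrays, and Sdpr (now Cavin2) was well above it on 1 array.

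Megakaryocytes are large bone marrow cells that shed platelets, small fragments without a nucleus that carry megakaryocyte RNA into the blood. Platelets bind damaged vessel walls through the glycoprotein Ib-IX-V complex and the integrin of Itga2b and Itgb3, and they release chemokines and clotting factors from their granules. PBMC are separated from blood by density, and platelets can remain with them, so platelet RNA is often measured in such preparations. In RNA from a mixture of cells, fewer cells of a type and less RNA per cell cannot be told apart.

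The pups were Wistar rats aged 21 days, and their dams had been given 20% less food energy while they suckled the pups (calorie restriction, CR) or had eaten freely (control). There were 5 CR males, 6 control males, 6 CR females and 6 control females, with 1 array per pup. The study drew on 16 litters, of 5 CR dams and 11 control dams, per the labels. Which pups shared a dam is not given, so all were treated as independent and p-values may be too small. Each pup's RNA was labelled with Cy5 and set against a Cy3-labelled pool of all samples, without dye swap, so a value is a log2 ratio of the pup to that pool. In Cy5, 20597 to 24069 probes per array stood well above background, at a median intensity of 55.6 to 65.8 over a local background of 27 to 30. Of the names on the marker lists, 14 of 16 for T cells, 10 of 15 for B cells and 12 of 16 for monocytes were measured after the same filter. So were 11 of 12 for natural killer cells, 16 of 22 for red cells and 10 of 17 for neutrophils. The counts were 6 of 12 for endothelium and stroma and 2 of 8 for progenitor and stem cells. Some genes are listed under both an older and a newer name, and a name without a probe counts as not measured. The remainder is therefore not a count of dim genes. Of all 41012 probes, 23693 passed.

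Upstream sequence is shown for the 3 genes that followed the other platelet genes most closely across pups (Ptgs1, Gp9 and Gp1bb) and for the 2 that followed them least (Sparc and Tbxas1), since this contrast runs through the results. These are the 250 bases before the annotated start, 5′ to 3′ on the gene's strand, from RefSeq on build GRCr8. Capitals mark GATAA, the core of GATA factor sites, and GGAAG, a core of ETS factor sites, each on either strand (TTATC and CTTCC), and overlapping matches are joined.
Ptgs1: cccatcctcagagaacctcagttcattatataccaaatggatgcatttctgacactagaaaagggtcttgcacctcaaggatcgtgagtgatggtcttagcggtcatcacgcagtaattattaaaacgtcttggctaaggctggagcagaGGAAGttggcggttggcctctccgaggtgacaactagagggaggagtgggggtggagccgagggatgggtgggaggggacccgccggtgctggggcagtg
Gp9: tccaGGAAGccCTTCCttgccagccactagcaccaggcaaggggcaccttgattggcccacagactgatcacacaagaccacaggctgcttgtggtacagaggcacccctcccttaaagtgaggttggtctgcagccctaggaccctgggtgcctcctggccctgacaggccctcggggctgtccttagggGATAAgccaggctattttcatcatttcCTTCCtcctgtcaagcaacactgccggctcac
Gp1bb: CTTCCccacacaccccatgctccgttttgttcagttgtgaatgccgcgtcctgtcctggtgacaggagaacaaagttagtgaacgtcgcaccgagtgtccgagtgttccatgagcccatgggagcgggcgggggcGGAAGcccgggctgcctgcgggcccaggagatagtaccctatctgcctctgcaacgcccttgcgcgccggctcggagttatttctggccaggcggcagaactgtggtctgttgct
Sparc: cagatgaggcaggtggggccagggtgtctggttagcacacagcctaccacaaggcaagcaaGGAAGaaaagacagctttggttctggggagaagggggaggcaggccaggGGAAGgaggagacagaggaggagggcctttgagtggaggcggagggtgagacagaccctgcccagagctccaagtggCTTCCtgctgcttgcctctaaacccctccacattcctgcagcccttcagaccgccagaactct
Tbxas1: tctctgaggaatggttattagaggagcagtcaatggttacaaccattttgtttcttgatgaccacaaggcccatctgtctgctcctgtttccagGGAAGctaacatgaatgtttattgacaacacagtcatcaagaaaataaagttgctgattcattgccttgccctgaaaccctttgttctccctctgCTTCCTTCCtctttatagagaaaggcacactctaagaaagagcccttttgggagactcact
The windows lie at chr3:39981169-39981418, plus strand (Ptgs1), chr4:121792592-121792841, plus strand (Gp9), chr11:95882311-95882560, plus strand (Gp1bb), chr10:40038817-40039066, minus strand (Sparc) and chr4:68631635-68631884, plus strand (Tbxas1).

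RefSeq promoter entries were found for 28 of the 36 genes; Pf4, Vwf, Plek, P2ry12, Selp, Esam, Itgb3 and Myl9 had none in the table used. GATAA was present upstream of 10 of the 28 genes, against 23.5% of all 33469 promoters, and GGAAG upstream of 23 of them, against 63.3% of all promoters. Among the 14 genes with an entry that correlated above 0.9 with the other platelet genes, 5 held GATAA and 11 held GGAAG. Gp9 held GATAA 1 time and GGAAG 3 times, whereas Gp1bb and Ptgs1 held no GATAA. Sparc and Tbxas1 held GGAAG 3 times each and no GATAA, so neither motif sorted the followers from the others among the sequences shown. A match of this length is a description of letters and not a binding site.

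The platelet genes differed far more between pups than most features did, and mostly together. Over the 27 genes, the median standard deviation (SD) within a group of pups was 0.65 on the log2 ratio scale, against 0.14 over all features. The SD of 20 of them lay above the 95th percentile of all features, which was 0.37. Each gene was correlated, over the 23 pups and after subtraction of group means, with the mean of the other 26 genes. The median Pearson correlation was 0.93, 17 genes were above 0.9, and the range ran from 0.043 to 0.992. These correlations describe 23 arrays, on which all genes share the pup, the slide and the labelling reaction.

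**Figure D1:**
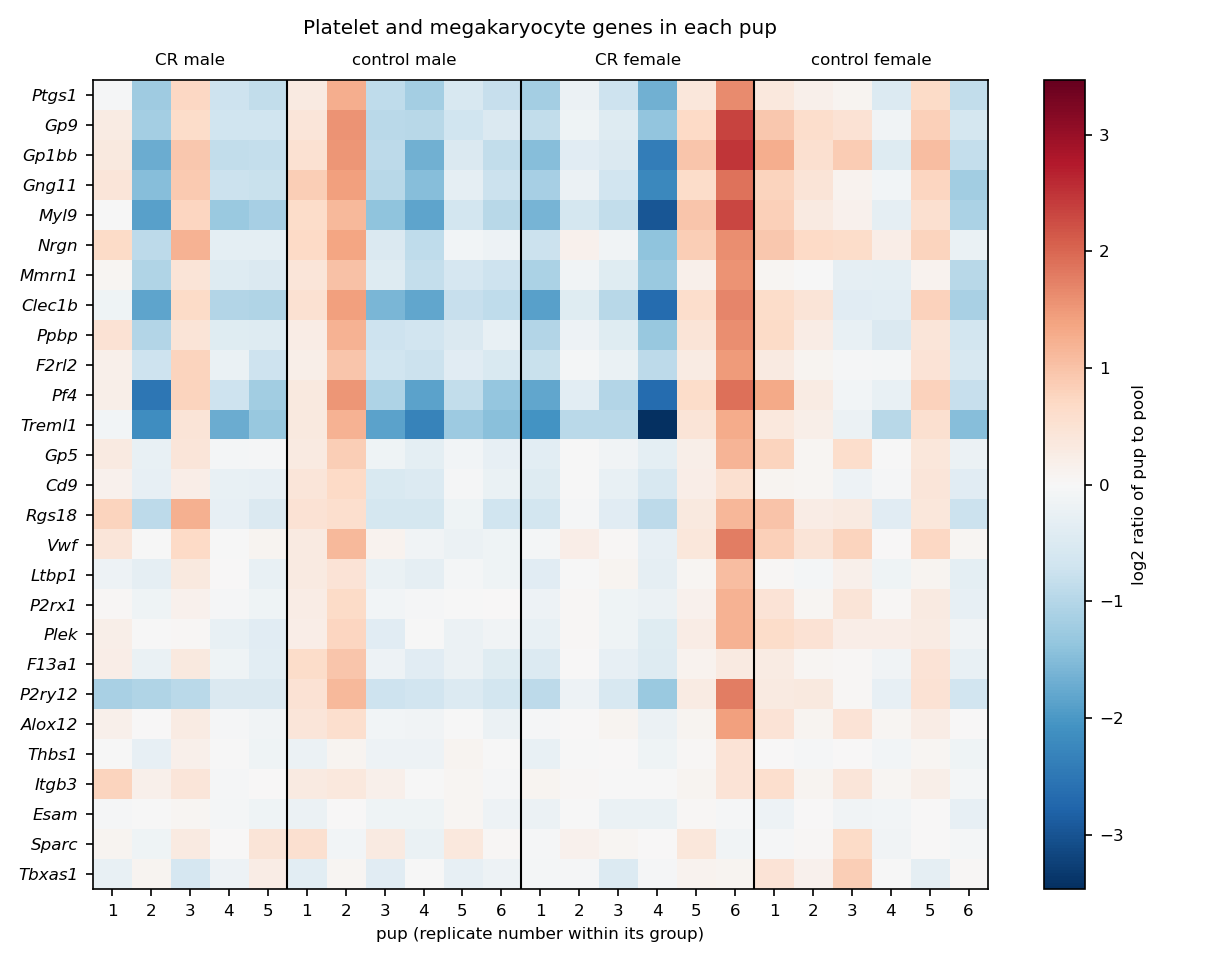
Log2 ratio of pup to pool (colour) for the 27 measured platelet genes (rows, ordered by correlation with the other genes) in each of the 23 pups (columns, by group and replicate number). CR female 6 and control male 2 were high, and CR female 4 was low, for most genes in the upper rows, while Sparc and Tbxas1 at the bottom did not follow.

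The mean log2 ratio of the 27 genes summarises each pup. It was 0.14, -0.78, 0.44, -0.41 and -0.44 in the 5 CR males. In control males it ran from -0.74 to 0.89 with a median of -0.39. The males of both diets overlapped over most of their range. In CR females the mean ran from -1.10 to 1.27 with a median of -0.24, and in control females from -0.51 to 0.52 with a median of 0.22. CR females held both the highest pup of the study (CR female 6) and the lowest (CR female 4). The group means were -0.21 ± 0.49 in CR males (SD, n = 5), -0.14 ± 0.63 in control males, -0.11 ± 0.84 in CR females and 0.12 ± 0.39 in control females (SD, n = 6 each).

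**Figure D2:**
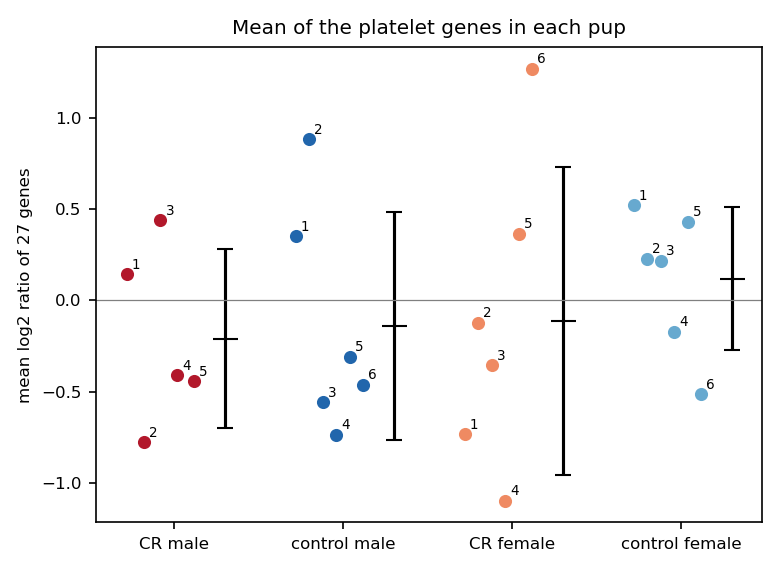
Mean log2 ratio of the 27 platelet genes in each pup (points, labelled by replicate number) for the 4 groups, with the group mean and SD at the right of each group. The groups overlap, and the lowest and the highest pup, at -1.10 and 1.27, are both CR females.

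The same probes in the Cy3 channel carried the same pool on every array, so their spread leaves out any difference between the RNA preparations of the pups. For the platelet genes the median SD across arrays was 0.72 in Cy5 and 0.067 in Cy3, against 0.18 and 0.069 over all features. The mean of the platelet genes correlated with the number of probes above background at -0.048 and with the median Cy5 intensity at -0.21, over 23 arrays. Brighter genes varied more: over the 27 genes, brightness and SD within groups correlated at 0.85, and the offset added to each intensity compresses the ratio of dim spots by construction.

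Chemokines of the alpha granule were among the most variable genes. Pf4 (platelet factor 4) was the brightest member, with a median raw Cy5 intensity of 15200, and its probe lies at chr14:18812555-18812614 on build rn4. Its log2 ratio was 0.21, -2.50, 0.76, -0.72 and -1.21 in the 5 CR males and ran from -1.85 to 1.53 with a median of -0.96 in control males. In CR females it ran from -2.66 to 1.92 with a median of -0.68, and in control females from -0.81 to 1.31 with a median of 0.098. Across all pups the range amounts to 24-fold, and CR and control values overlapped in both sexes. Ppbp (pro-platelet basic protein), whose probe lies next to it at chr14:18816439-18816498, was 0.51, -1.02, 0.45, -0.41 and -0.44 in CR males and from -0.71 to 1.21 in control males (median -0.38). Ppbp ran from -1.31 to 1.61 in CR females (median -0.29) and from -0.64 to 0.66 in control females (median 0.002). Both chemokines followed the other platelet genes, at correlations of 0.973 and 0.974.

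Surface receptors differed in how widely they ranged, from 29.5-fold over the pups for Gp1bb to 2.91-fold for Gp5 and 1.79-fold for Itgb3. The probes of Gp5 and Itgb3 were dim, at median Cy5 intensities of 82.3 and 81.5, against 2890 for Gp1bb. The offset compresses the ratios of dim spots, and its part in these ranges was not tested. Gp9 and Gp1bb encode subunits of the receptor for von Willebrand factor. Gp1bb was 0.34, -1.71, 0.92, -0.85 and -0.82 in CR males and ran from -1.68 to 1.54 in control males (median -0.67). In CR females it ran from -2.41 to 2.47 (median -0.45), and in control females from -0.82 to 1.26 (median 0.72). Its highest and lowest values both came from CR females. Gp9 was 0.30, -1.17, 0.62, -0.69 and -0.70 in CR males, against -0.96 to 1.56 in control males (median -0.58). Gp9 ran from -1.37 to 2.36 in CR females (median -0.29) and from -0.60 to 0.93 in control females (median 0.56). Both subunits followed the other platelet genes, at correlations of 0.989 (Gp1bb) and 0.990 (Gp9).

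Treml1, a receptor stored in alpha granules and exposed when platelets are activated, had the largest SD within groups, 1.30. It was -0.093, -2.17, 0.46, -1.71 and -1.31 in CR males and from -2.32 to 1.21 in control males (median -1.36). It ran from -3.47 to 1.28 in CR females (median -0.94) and from -1.49 to 0.57 in control females (median 0.009). CR female 4 held the lowest value of any member. A second Treml1 probe correlated with the one used at 0.97 across pups, whereas the second probes of Vwf and Gng11, the other members with 2 probes, were dim and did not follow, as given with those genes. Clec1b, the podoplanin receptor CLEC-2, spanned 20.6-fold, and Myl9, the regulatory myosin light chain of platelet contraction, spanned 38.7-fold, the widest of the 27.

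Itgb3, the beta chain of the fibrinogen receptor, was flatter. It was 0.77, 0.18, 0.42, -0.053 and 0.020 in CR males and from -0.028 to 0.37 in control males (median 0.12). In CR females it ran from -0.019 to 0.48 (median 0.074) and in control females from -0.074 to 0.57 (median 0.15). Its range was 1.79-fold, its correlation with the other genes was 0.70, and its probe was dim, at a median Cy5 intensity of 81.5. No probe was matched to its partner Itga2b by name, but 1 probe is described in the files as similar to integrin alpha-IIb. That probe ran from -1.17 to 1.44 over the pups and correlated with the mean of the platelet genes at 0.98. The probe described as similar to glycoprotein VI correlated at -0.38 and had an SD of 0.12.

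Granule and plasma proteins differed in how far they followed. Mmrn1 (multimerin 1, a carrier of factor V) correlated with the other genes at 0.979, Vwf (von Willebrand factor) at 0.924 by its brighter probe, Ltbp1 (latent TGF-beta binding protein) at 0.907 and F13a1 (the A subunit of factor XIII) at 0.88. The second Vwf probe, with a median Cy5 intensity of 53.6 against 1230 for the one used and well above background on 12 arrays, correlated with the other genes at 0.178 and with the first probe at 0.197, so the value for Vwf rests on the probe used. Thbs1 (thrombospondin 1) correlated at 0.798 but was well above background on 9 arrays. Sparc (osteonectin) correlated at 0.139 although it was above background on 23 arrays. Sparc was 0.10, -0.15, 0.31, 0.018 and 0.43 in CR males, from -0.23 to 0.56 in control males, from -0.13 to 0.39 in CR females and from -0.14 to 0.67 in control females.

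The enzymes of arachidonic acid metabolism separated. Ptgs1 (cyclooxygenase 1) followed the other genes most closely of all, at 0.992, with a 9.75-fold range over pups. Alox12 (12-lipoxygenase), well above background on 15 arrays, correlated at 0.86. Tbxas1, the thromboxane synthase that acts after Ptgs1 and is also made by monocytes, correlated at 0.043. Tbxas1 was -0.27, 0.098, -0.59, -0.17 and 0.26 in CR males and from -0.40 to 0.069 in control males (median -0.23). It ran from -0.48 to 0.12 in CR females (median -0.052) and from -0.30 to 0.85 in control females (median 0.089). The highest Tbxas1 value belonged to control female 3, a pup whose mean over the platelet genes was 0.22.

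**Figure D3:**
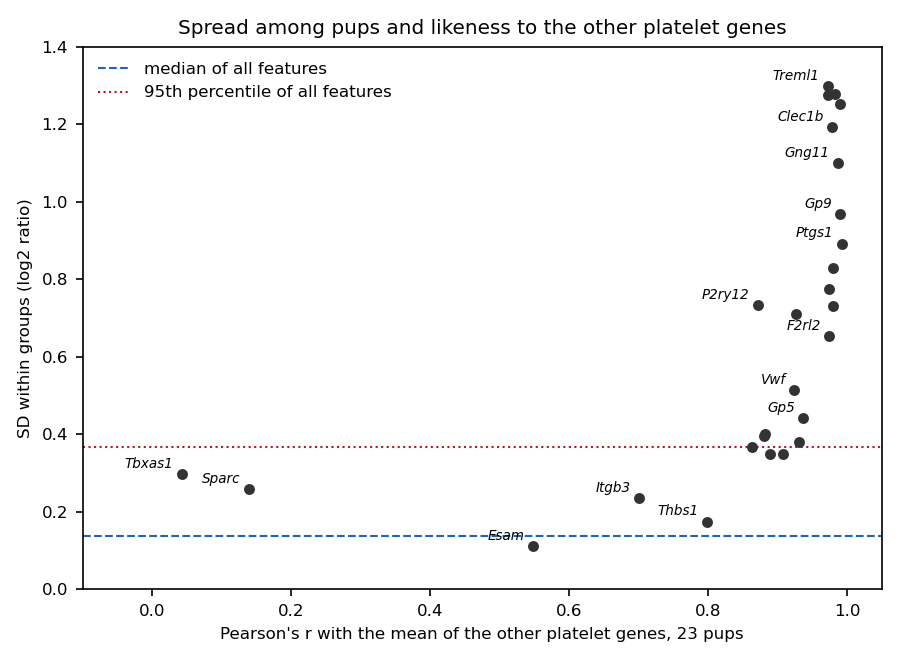
SD within groups of each of the 27 platelet genes (vertical axis, log2 ratio) against its Pearson correlation with the mean of the other 26 genes over 23 pups (horizontal axis); lines mark the median (0.14) and the 95th percentile (0.37) of the SD over all features. Genes with an SD over 0.4 all correlate above 0.8, and Tbxas1 and Sparc lie apart at 0.043 and 0.139.

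Receptors and signalling proteins mostly followed. F2rl2, the thrombin receptor PAR3, correlated at 0.974, Gng11 (a G protein gamma subunit) at 0.986 by its brighter probe, Nrgn (neurogranin, a calmodulin-binding protein) at 0.98 and P2rx1 (an ATP-gated channel) at 0.889. The second Gng11 probe, with a median Cy5 intensity of 41 against 716 for the one used, was well above background on 2 arrays and did not pass the filter. It correlated with the other genes at 0.316 and with the first probe at 0.322. Rgs18, a regulator of G protein signalling, was 0.77, -0.90, 1.24, -0.29 and -0.51 in CR males and ran from -0.70 to 0.58 in control males (median -0.38). In CR females Rgs18 ran from -0.91 to 1.15 (median -0.22), and in control females from -0.74 to 0.98 (median 0.28).

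P2ry12, the ADP receptor that is the target of clopidogrel, departed from the set in particular pups. It was -1.11, -1.03, -0.93, -0.50 and -0.51 in CR males and ran from -0.71 to 1.13 in control males (median -0.55). It ran from -1.30 to 1.77 in CR females (median -0.36) and from -0.67 to 0.51 in control females (median 0.18). In CR male 3 it lay 1.29 below the line fitted to the other 26 genes over all pups (departure -1.29), the largest departure of any gene. CR males 1 and 3 were the CR males in which most other platelet genes were high, with 18 and 25 of 27 genes above the pool. Over all 23 pups the values of P2ry12 correlated with the mean of the other genes at 0.83, and over the 21 pups without CR males 1 and 3, which were chosen after the values were seen, at 0.98. Rgs18 departed upward in the same pup, by 0.75 in CR male 3.

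**Figure D4:**
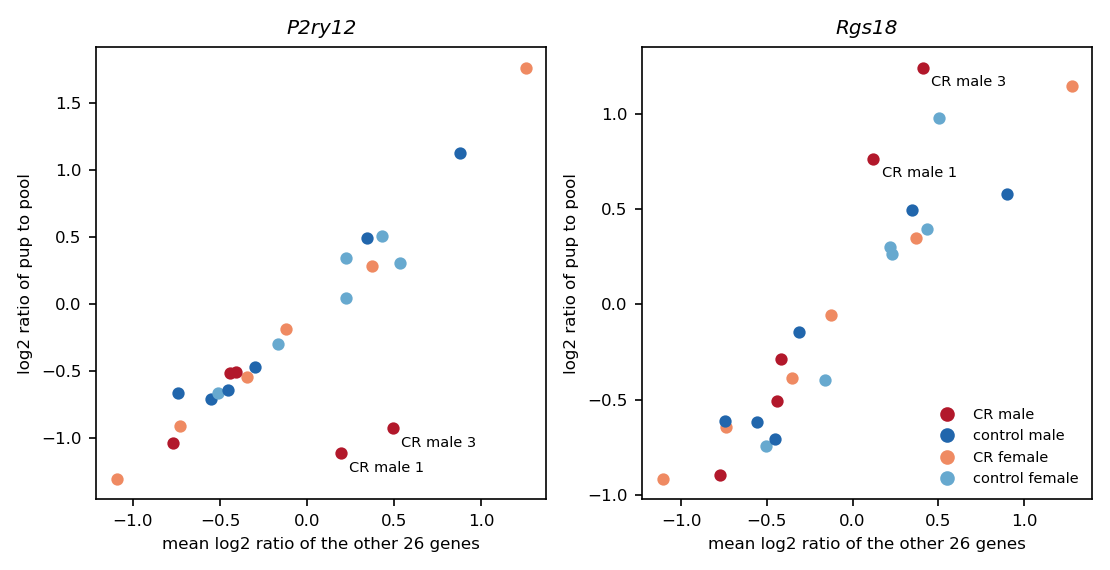
Log2 ratio of P2ry12 (left) and Rgs18 (right) in each of the 23 pups against the mean log2 ratio of the other 26 platelet genes, coloured by group. CR males 1 and 3 fall below pups of like mean for P2ry12, at -1.11 and -0.93, and lie above such pups for Rgs18, at 0.77 and 1.24.

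Whether restriction of the dam changed these genes was tested with limma as CR minus control. In males, no platelet gene was called at an adjusted p under 0.05 (0% of all features called), and 0 of 27 reached an unadjusted p under 0.05, which 7.19% of all features did. The median difference over the 27 genes was -0.075, with 19 below 0, against -0.007 and 52.7% of all features below 0. P2ry12 had the smallest p, at a log2 difference of -0.68 ± 0.41 (SE; limma adjusted p = 0.757), with a 95% interval from -1.52 to 0.17. P2rx1 differed by -0.16 ± 0.20 and Plek (pleckstrin) by -0.13 ± 0.23. Of the genes higher in CR males, Itgb3 differed by 0.12 ± 0.13, Esam (an endothelial and platelet adhesion molecule) by 0.056 ± 0.069 and Rgs18 by 0.23 ± 0.40. None of these differences exceeded the spread between pups.

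In females the differences leaned lower in CR pups but were not called either. limma called 0 of 27 platelet genes (0% of all features), and 0 of 27 reached an unadjusted p under 0.05, against 4.65% of all features. The median difference was -0.17, with 22 of 27 genes below 0, where 48.4% of all features lay below 0. Since the genes move together across pups, such a count repeats much the same comparison and is not 27 separate ones. Pf4 differed by -0.75 ± 0.68 (limma adjusted p = 0.995), with a 95% interval from -2.16 to 0.65. Tbxas1 had the smallest p, at -0.27 ± 0.16, and Nrgn differed by -0.45 ± 0.44. Among the few above 0, Ltbp1 differed by 0.13 ± 0.19, Thbs1 by 0.045 ± 0.097 and Mmrn1 by 0.040 ± 0.39.

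**Figure D5:**
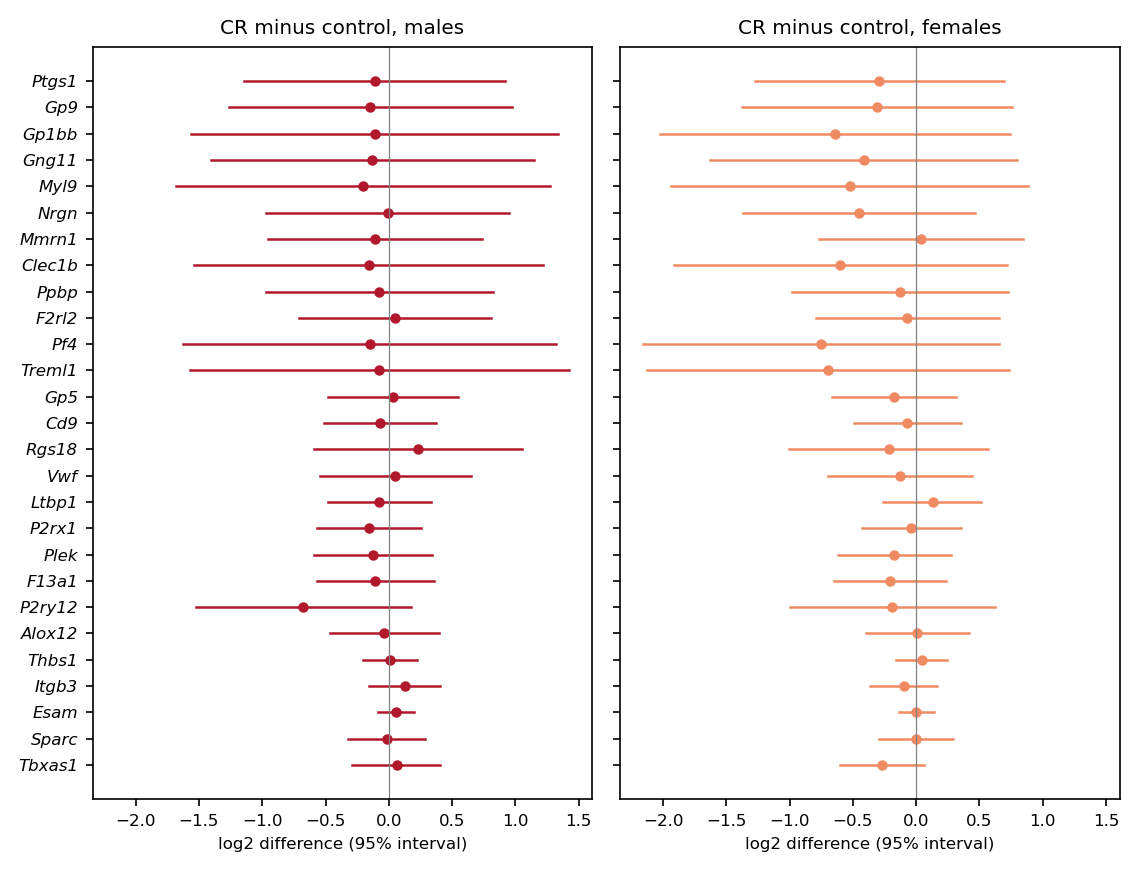
Log2 difference of CR minus control for each of the 27 platelet genes (points) with its 95% interval from limma (bars), in males (left) and females (right), with genes ordered by correlation with the other platelet genes. Every interval includes 0, and the intervals of the genes that vary most among pups are the widest, as for Pf4 in females from -2.16 to 0.65.

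For the mean of both sexes, 0 of 27 genes were called (0% of all features), and 0 of 27 had an unadjusted p under 0.05, against 7.34% of all features. The median was -0.10, with 22 genes below 0, as were 49.1% of all features. Of the defining genes, Pf4 differed by -0.45 ± 0.49 (limma adjusted p = 0.91), Treml1 by -0.39 ± 0.50, Gp1bb by -0.38 ± 0.48 and Gp9 by -0.23 ± 0.37. Ppbp differed by -0.10 ± 0.30 and Itgb3 by 0.013 ± 0.093. P2ry12 differed by -0.43 ± 0.28, F13a1 by -0.16 ± 0.15 and Plek by -0.15 ± 0.16, while Esam, Thbs1 and Ltbp1 differed by 0.026 to 0.029. The median standard error was 0.25 for the platelet genes, against 0.057 over all features, so a gene of this set needed a much larger difference to be called than a typical feature.

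Single pups decided the size of these medians. Without CR female 6, the highest pup, the median was -0.39 in females and -0.20 for both sexes averaged, and 3 platelet genes had an unadjusted p under 0.05 for the mean of the sexes, none of them called. The share of all features at such a p was not counted without that pup, so the count of 3 cannot be judged. Without CR female 4, the lowest, the median in females was -0.024. In males the median turned to 0.17 without control male 2, to 0.086 without CR male 2 and to 0.028 without control male 1. On slides that held both diets, the mean of the platelet genes in CR minus control females was -1.26, -0.35, -0.57, -0.93 and -0.064 on 5 slides and 1.79 on the sixth, which held CR female 6. In males it was 0.70, -0.041, 0.75 and 0.019 on 4 slides. With the slide as a block, the median in males was 0.022, with 12 of 27 genes below 0, and that in females -0.17.

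Whether the diet effect differed between the sexes was tested as an interaction, in which limma called 0 of 27 genes (0% of all features) and 0 had an unadjusted p under 0.05, against 4.67% of all features. The median of the male minus the female diet difference was 0.17 on the log2 scale, with 20 genes above 0, against 47.6% of all features. With each array centred on its median, the platelet genes had a median of -0.03, with 14 of 27 below 0. The median of all features then moved from -0.007 to -0.158, so the platelet genes still lay above it. P2ry12 (-0.49 ± 0.57), Ltbp1 (-0.20 ± 0.27), Tbxas1 (0.33 ± 0.23) and Itgb3 (0.22 ± 0.19) had the smallest p in each direction. Between males and females averaged over diets, limma called 12 features (0.0578%) and no platelet gene, and 0 of 27 had an unadjusted p under 0.05, against 7.39% of all features. The platelet genes leaned lower in males, with a median of -0.17 and 23 of 27 below 0, against 50.7% of all features. Tbxas1 differed by -0.23 ± 0.12 between males and females (limma adjusted p = 0.693) and P2ry12 by -0.43 ± 0.28, while Sparc (0.074 ± 0.10) and Esam (0.033 ± 0.048) were above 0. Without CR female 6 the median for males minus females was -0.018.

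Other genes of platelets, from 4 lists that hold no member, were also measured, and limma called none of them in any of the 5 comparisons. Among 9 measured transcription factors and related genes of megakaryocytes, 5 lay below 0 for the mean of the sexes, with Fli1 (an ETS factor) at -0.21 ± 0.086 and the smallest p. Among 16 signalling genes, 10 lay below 0, and the 3 with the smallest p were Plcg2 (phospholipase C gamma 2, -0.43 ± 0.10, limma adjusted p = 0.498), the kinase Syk (-0.47 ± 0.14) and Rasgrp2 (the activator of Rap1, -0.29 ± 0.12). B cells express Plcg2 and Syk too, and 10 of 10 B cell markers lay below 0, with a median of -0.32. The mean of the B cell list ran from -0.52 to 0.16 in CR males, from -0.079 to 0.67 in control males, from -0.18 to 0.26 in CR females and from -0.052 to 0.79 in control females, and its part in these differences was not tested. Among 24 surface and granule genes 11 lay below 0, with Tgfb1 at -0.21 ± 0.083, and among 16 cytoskeletal genes 11 lay below 0, with Bin2 at -0.19 ± 0.095. At an unadjusted p under 0.05 for the mean of the sexes, which 7.34% of all features reached, stood 1 of the 9 transcription genes, 3 of the 16 signalling genes, 1 of the 24 surface and granule genes and 0 of the 16 cytoskeletal genes, all of them lower in CR pups. In males 3 signalling genes stood there lower in CR pups and 2 surface and granule genes higher, with 0 of the other lists, against 7.19% of all features. In females 1 signalling gene and 4 of the 16 cytoskeletal genes stood there, all lower in CR pups, with 0 of the other lists, against 4.65% of all features.

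Across pups, the means of these 4 lists correlated with the mean of the platelet genes at 0.92 for the surface and granule genes, 0.703 for the cytoskeletal genes, 0.557 for the signalling genes and 0.34 for the transcription genes. Gene by gene, 4 of 24, 1 of 16, 1 of 16 and 1 of 9 in that order correlated above 0.8. Such values, at which genes are named here after their values were seen, were reached by Tal1 of the transcription factors (0.86), Gnaz of the signalling genes (0.93), Pdlim1 of the cytoskeletal genes (0.96), and Clu, F5, Angpt1 and Cd226 of the surface and granule genes (0.92 to 0.99). Gata1, which with Tal1 drives megakaryocyte genes and is also active in red cell precursors, correlated at 0.21. The mean of the 16 red cell genes, which varied even more than the platelet genes (median SD 0.89), correlated with the mean of the platelet genes at -0.075. The corresponding values were -0.43 for 10 neutrophil genes, -0.27 for 12 monocyte genes, -0.18 for 14 T cell genes, -0.15 for 10 B cell genes, 0.15 for 11 natural killer cell genes and 0.34 for 6 endothelial and stromal genes. No gene of these cell type lists correlated above 0.8.

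Features counted as no member include the probe described as similar to integrin alpha-IIb (0.983). They could also include 2 further probes of members, which were left unnamed. Of all these features, 69 (0.333%) correlated above 0.9 with the mean of the platelet genes. Among the 10 named ones with the highest values were Pla1a (0.997), Clu (0.990), Gas2l1 (0.984), Tsc22d1 (0.984), Bgn (0.983), Fhl1 (0.979), Cst3 (0.974), F5 (0.974) and Npy (0.971), each over 23 pups. Pla1a, a phospholipase specific for phosphatidylserine, ran from -2.14 to 1.92 over the pups. Clu (clusterin, a secreted chaperone) ran from -1.79 to 2.65, and F5 (clotting factor V) from -0.83 to 1.74. Npy (neuropeptide Y) ran from -1.56 to 2.21. The difference of CR minus control in these 9 genes was between -0.25 and -0.017 for the mean of the sexes, with none called. The first principal component of the variance within groups held 20.1% of it over 20356 features and correlated with the mean of the platelet genes at 0.57.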

How the data were processed

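RNA from the PBMC of 23 pups was hybridised to 2-colour Agilent rat arrays, 1 array per pup. Per the submitters' processing notes, the authors used Agilent Feature Extraction, version 10.5.1.1. The deposited scanner files give an unnormalized intensity per spot and channel, per the file headers, and the software's own background-subtracted, dye-normalized log10 ratio of Cy5 to Cy3. Their other columns are spot flags, deposited with the authors' files and set by that software. The deposited value table holds log2 levels of 22920 spots by a method not given in the sources used here, and served as an alternative.

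Intensities were corrected with limma's normexp (offset 50) and normalized by loess within each array. The filter asked for a Cy5 signal well above background on 50% or more of a group's arrays, in any group, and left 23693 probes and, with the brightest probe per gene, 20751 features (10038 named). Names came from RefSeq, assembly GRCr8, for 19524 of 41012 probes. limma 3.58.1 in R 4.3.3 was fitted to the 4 group means, with Benjamini-Hochberg adjustment over all features and a threshold of 0.05. The procedure was tested on simulated data in which features and pups varied independently. That test does not cover shared litters or genes that move together. Figures were drawn with matplotlib. Pups share litters in a way the labels do not give, and precision is limited by the number of arrays.

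The members and all gene lists were chosen with earlier results of these data known. Genes with values are the defining members (Pf4, Ppbp, Itga2b, Itgb3, Gp9, Gp1bb, Treml1 and Tubb1, as far as measured), the 3 members with the smallest p in each direction of each diet comparison (2 for the interaction and for sex), at most 3 genes by p of each other platelet list, and the 10 named features most like the members' mean, of which 1 is not reported here. Genes outside this rule are named for their correlations or because only a few passed a count, after their values were seen. Alternatives covered the ratio, the normalization, the channel, the value table, the filter, the choice of probe, the slide, the replicate number and leaving out each array.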

Additional observations from a re-analysis of the deposited data

Results flagged for a closer look

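Single pups were compared with the rest of their group by the gap to the nearest pup over the range of the group (Dixon's criterion). They stood apart in 5 of the 76 combinations of a gene and a group that were checked, which were not all combinations. Chance gives about 1 in 20 for separate combinations. These share pups, and most of the genes move together, so the count cannot be judged by that rate. In CR females the high pup was CR female 6 for P2rx1 (log2 ratio 1.199), Itgb3 (0.482) and Ltbp1 (1.074), the pup with the highest mean over the platelet genes. Tbxas1 had a low pup in CR females (-0.481), CR female 3. Sparc had a high pup in control females (0.668), control female 3, in which Tbxas1 was also highest. The cause of these values was not tested.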

How the results depend on the processing

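No platelet gene was called in any of the 5 comparisons under any of the 31 alternatives; the deposited value table held 26 of the 27. The median correlation of a gene with the others was 0.93 in the main setting, 0.929 to 0.962 under the other scalings and 0.917 to 0.944 when single arrays were left out. The median diet difference of the platelet genes ranged from -0.199 to 0.169 in males, from -0.392 to -0.024 in females and, averaged over the sexes, from -0.203 to -0.043 when 1 array was left out, from -0.056 to 0.404 for the interaction and from -0.254 to -0.018 for males minus females. With the scanner software's ratio the female median was -0.39 and that of both sexes averaged -0.27. Centring each array on its median moved the median of all features to -0.185 in males, where the platelet genes then had a median of -0.307, 24 of 27 below 0 (19 in the main setting) and 1 gene at an unadjusted p under 0.05. Of all 20751 features, 6519 had such a p in males with that centring, against 1492 in the main setting. The same centring moved the median of all features to -0.158 for the interaction, where 13 platelet genes lay above 0 (20 in the main setting) and their median was -0.03. For the mean of the sexes 25 platelet genes lay below 0 with that centring (22 in the main setting), which moved the median of all features from 0.001 to -0.099. In females 25 lay below 0 with the scanner's ratio (22 in the main setting), and between the sexes 26 with Cy5 alone (23 in the main setting).

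Same-numbered CR and control pups correlated at 0.030 to 0.201 in males and -0.236 to 0.327 in females. Pups of unlike number were not compared, so these values cannot decide whether the replicate numbers pair the pups. With the replicate block, 1 feature and no platelet gene was called in males, and the male median was -0.049. Left-out arrays gave 0 to 4 called features in males and 0 to 3 for the mean of the sexes. Platelet genes at an unadjusted p under 0.05 then numbered 0 to 1 in males, 0 to 1 in females, 0 to 3 with the sexes averaged and 0 to 1 between the sexes. The share of all features at such a p was not counted with single arrays left out, so these counts cannot be judged.

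Small differences changed sign. In males Esam was -0.033 with Cy5 alone and Rgs18 -0.027 with median centring. In females Thbs1 was -0.87 and Mmrn1 -0.261 with the scanner ratio, and Mmrn1 -0.044 with median centring. For the mean of the sexes, Itgb3 was -0.038, -0.046 and -0.017, and Ltbp1 -0.021, -0.037 and -0.018, with the scanner ratio, median centring and Cy5 alone. Thbs1 was -0.662 with the scanner ratio and Esam -0.010 with Cy5 alone, and between the sexes Esam was -0.009 with Cy5 alone. Leaving out single arrays moved Plek from -0.215 to 0.012, Itgb3 from -0.001 to 0.205 and Rgs18 from -0.065 to 0.47 in males. In females Ltbp1 spanned -0.068 to 0.224, Thbs1 -0.049 to 0.102 and Mmrn1 -0.31 to 0.257. For the mean of the sexes Ppbp spanned -0.277 to 0.031, Itgb3 -0.05 to 0.053, Thbs1 -0.021 to 0.055 and Ltbp1 -0.072 to 0.074. The cause of these moves was not tested. Thbs1, Esam, Alox12, Gp5 and Ltbp1 were not well above background on some arrays, and their ratios are compressed there.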
